A study of Mus musculus with 56 samples.

Results

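Transcript levels of 8 ADAM genes were followed along the male mouse reproductive tract at 2 ages. The 8 genes were taken by name from the 53379 genes of the count table. Adam1a, Adam1b, Adam2, Adam3, Adam5 and Adam32 are the 6 ADAM genes known from testicular sperm, and Adam7 and Adam28 are the 2 known from the epididymis. Total RNA was sequenced from C57BL/6 males aged 3 months, the young group, and 21 months, the old group, without any treatment or genetic change named for either. Each age was represented by 4 libraries for each of 7 regions, which gave 14 groups and 56 libraries. The regions were the testis, the efferent ductules that lead out of it, the epididymis in 4 pieces (initial segment, caput, corpus, cauda, in the order in which sperm pass) and the vas deferens. By the study's methods, 4 mice were used per age and the 7 regions were dissected from the same mice, both sides of a mouse together, so libraries of different regions are not independent animals.

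ADAM proteins are membrane proteins with a disintegrin domain and a metalloprotease domain, and many of those made in the testis have lost the residues that a protease needs. In male germ cells they are made before sperm leave the testis, travel to the sperm surface in complexes and are trimmed as sperm pass through the epididymis. ADAM2 and an ADAM1 form the pairs called fertilins. ADAM3 is required for sperm to enter the oviduct and to bind the egg coat, and its surface delivery depends on a fertilin and on chaperones of the endoplasmic reticulum. ADAM7 is made by epididymal epithelium and passed to sperm, and ADAM28 is an active-type ADAM that is known from lymphocytes as well as from epididymis.

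The 56 libraries held between 11125279 and 20561967 counts, with a median of 16384049. Of the regional marker sets of 6 genes, those of the efferent ductules and the initial segment were highest in their own region for all 6 at both ages, and those of the distal epididymis and the vas deferens for 5. The caput set was highest in the caput for 4 genes at 3 months and 5 at 21 months, and all 12 spermatid genes were highest in the testis. Within the efferent ductules, old libraries 2 and 3 held more initial segment transcripts than old libraries 1 and 4. Young ductule library 3 held more germ cell transcripts than the other 3 young ones. The source of these transcripts was not tested. The noncoding gene Gm42418 held from 1.27 to 36.0% of the counts of a library and 49.7% in young caput library 2. Its share differed with age in the ductules, from 1.27 to 3.29% in young and 4.93 to 22.2% in old libraries, and its part in the age results was not tested beyond leaving it out, which left the 8 age calls in number. In whole pieces of tissue, fewer cells of a type and less RNA per cell cannot be told apart.

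The 8 genes lie in 4 places of the GRCm38 genome, all on the minus strand. Adam3 (chr8:24677225-24725852), Adam5 (chr8:24727093-24824369) and Adam32 (chr8:24836140-24948804) follow each other with gaps of 1.24 and 11.77 kb. Adam7 (chr14:68497336-68533741) and Adam28 (chr14:68606027-68655842) are neighbours with a gap of 72.285 kb that holds only Adamdec1 of the ADAM genes examined, while Adam2 (chr14:66027329-66077733) lies 2419.602 kb away from Adam7. Adam1a (chr5:121518576-121545482) and Adam1b (chr5:121500098-121503435) are 15.14 kb apart. The coding stretch that carries, or aligns with, the zinc-binding motif of the protease domain is printed here because it separates the genes by type. Capitals mark the codons of those residues of the motif, 5 in a complete one, that are present, and each stretch is read 5′ to 3′ on the minus strand of GRCm38 from the GENCODE M21 transcript.
Adam28, chr14:68633167-68633199: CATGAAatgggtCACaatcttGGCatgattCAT
Adam7, chr14:68516614-68516646: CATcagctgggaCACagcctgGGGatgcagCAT
Adam1a, chr5:121520089-121520121: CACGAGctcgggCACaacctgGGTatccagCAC
Adam1b, chr5:121501937-121501969: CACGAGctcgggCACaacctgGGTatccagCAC
Adam2, chr14:66053841-66053873: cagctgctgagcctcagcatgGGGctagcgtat
Adam3, chr8:24707418-24707450: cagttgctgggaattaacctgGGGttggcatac
Adam5, chr8:24806449-24806484: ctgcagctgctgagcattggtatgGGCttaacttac
Adam32, chr8:24901501-24901536: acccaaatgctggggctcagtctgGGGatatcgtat
Adam28, Adam1a and Adam1b held 5 of 5 motif codons, Adam7 held 4 of 5 and lacked the one for the catalytic glutamate, and Adam2, Adam3, Adam5 and Adam32 held 1 of 5. The motif lies in the single coding exon of Adam1a and Adam1b and in exon 11 of the other 6 genes. Adam1a and Adam1b were identical over it and at 81.5% of aligned coding bases, and 30.9% of the 50-base words of the Adam1a transcript also occur in Adam1b, so reads from these stretches could be split between the 2 genes or lost. No other pair of the 8 transcripts shared a word of 50 bases.

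Levels are given as CPM, that is, counts scaled to the library's effective size after the trimmed mean of M-values (TMM) scaling, in replicate order within a group. Adam5 had the highest count level of the sperm ADAM genes in the testis, with 1223, 1221, 1107 and 1199 CPM at 3 months. At 21 months its testis libraries had 1248, 1169, 1189 and 1141 CPM, and the ages overlapped. Adam3 followed with 1123, 1075, 1013 and 1095 CPM in the young testis and 1027, 984, 995 and 1024 CPM in the old one. The lowest young Adam3 library lay within the old range. Adam32, whose product belongs to the same sperm group, had 596, 589, 540 and 582 CPM in the young testis and 597, 561, 560 and 578 CPM in the old, again overlapping. Adam2, the fertilin beta gene, had 363, 354, 357 and 370 CPM at 3 months and 314, 315, 313 and 321 CPM at 21 months. All 4 old testes were therefore below all 4 young ones for Adam2. Adam1b, the fertilin alpha gene of the sperm surface, had 90.4, 101, 83.0 and 118 CPM in the young and 112, 101, 101 and 86.0 CPM in the old testis. Adam1a, whose product stays in the endoplasmic reticulum, had 78.5, 78.9, 77.9 and 73.2 CPM in the young and 78.8, 71.0, 76.4 and 78.5 CPM in the old testis. Neither ADAM1 gene separated the ages.

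Per kilobase of transcript, which allows levels of different genes to be compared, the order in the young testis was Adam5 at 464 ± 21.5 CPM per kb (SD, n = 4), Adam3 at 392 ± 17, Adam32 at 235 ± 10.2, Adam2 at 142 ± 2.81, Adam1b at 29.4 ± 4.60 and Adam1a at 22.1 ± 0.762. The order was the same in the old testis, from 464 ± 17.8 CPM per kb for Adam5 to 21.8 ± 1.03 for Adam1a. The 3 neighbours on chromosome 8 thus had the highest values of the 6 at both ages, and the ADAM1 genes the lowest. Per kilobase of all annotated exons, Adam5 had 379 and Adam3 366 CPM per kb in the young testis. The ADAM1 values could be too low, since reads from stretches that Adam1a shares with Adam1b or with other genes may have been lost. The ratio of Adam5 to Adam3 counts in the testis was 1.10 ± 0.0215 at 3 months and 1.18 ± 0.0443 at 21 months (SD, n = 4).

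**Figure D1:**
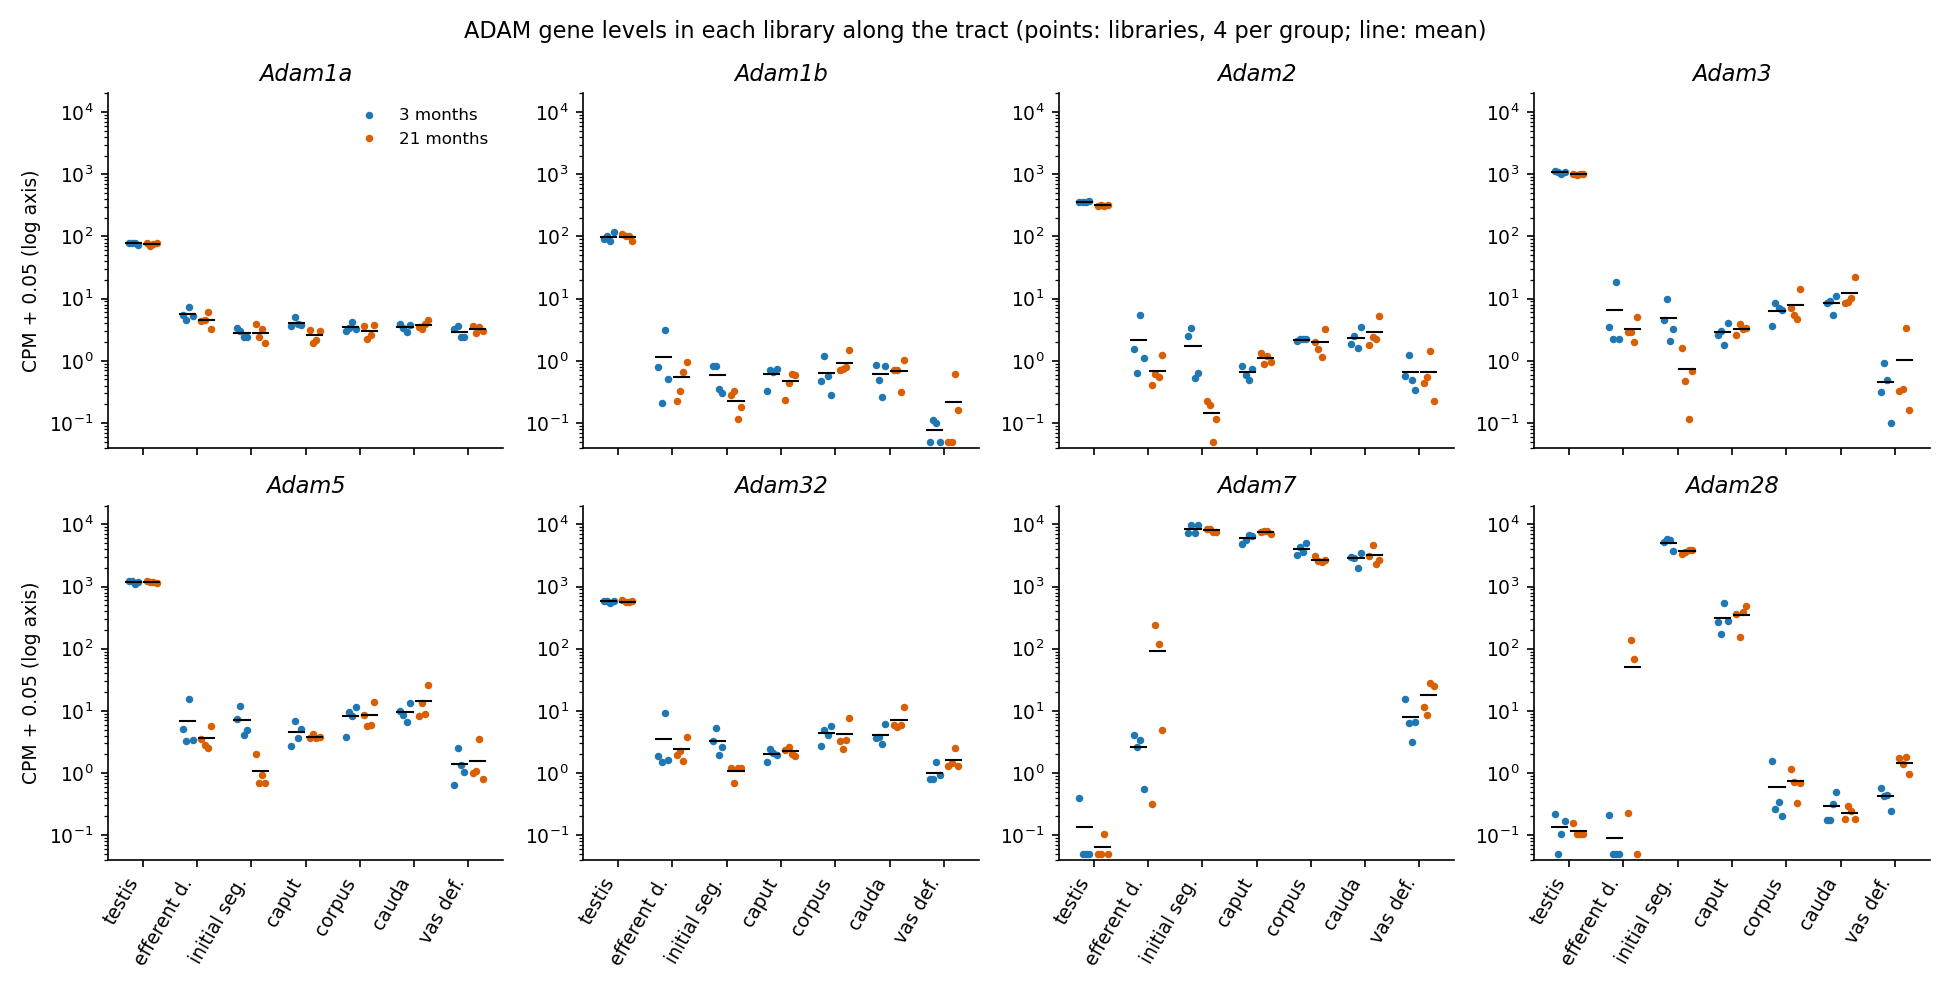
Level of each of the 8 ADAM genes in each of the 56 libraries, in CPM plus 0.05 on a log axis, by region (3 months blue, 21 months orange; horizontal lines are means of 4 libraries). The 6 sperm genes are highest in the testis, while Adam7 is highest from the initial segment to the cauda and Adam28 in the initial segment, at 5112 CPM on average at 3 months.

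In the ducts the 6 sperm ADAM genes were low, which is a description, since the genes were named by this division, and nothing is read from a test of the testis against the ducts. As a share of the young testis mean, the 6 genes summed to 0.763 ± 0.663% for young efferent ductules, 0.595 ± 0.304% for the initial segment, 0.429 ± 0.0971% for caput, 0.74 ± 0.197% for corpus, 0.841 ± 0.224% for cauda and 0.184 ± 0.0569% for vas deferens (SD, n = 4). Without young ductule library 3 the ductule share was 0.433 ± 0.0877% (SD, n = 3). In old mice the corresponding shares of the old testis mean were 0.455 ± 0.102%, 0.178 ± 0.0651%, 0.405 ± 0.015%, 0.809 ± 0.385%, 1.26 ± 0.615% and 0.248 ± 0.135%. Without Adam1a, whose exons are largely shared with another gene, the young vas deferens share was 0.101 ± 0.0466% and the old initial segment share 0.0942 ± 0.0447%. The lowest means were thus in the vas deferens of young mice and in the initial segment of old mice, and the highest in the cauda at both ages. The old vas deferens mean includes library 3, with 3.26 CPM of Adam3 against 0.114 to 0.303 CPM in the others of its group. No share is given without that library, so the old vas deferens and initial segment are not ranked against each other. The 12 spermatid genes, which include the protamines and transition proteins, summed in the same young libraries, taken in that order, to 0.897%, 0.648%, 1.2%, 2.59%, 5.06% and 0.401% of the testis mean, with 0.527% in the ductules without library 3. The spermatid share therefore climbed more steeply towards the cauda than that of the ADAM genes. Whether the ADAM transcripts in the ducts came from sperm in the lumen or from the duct wall was not tested.

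**Figure D2:**
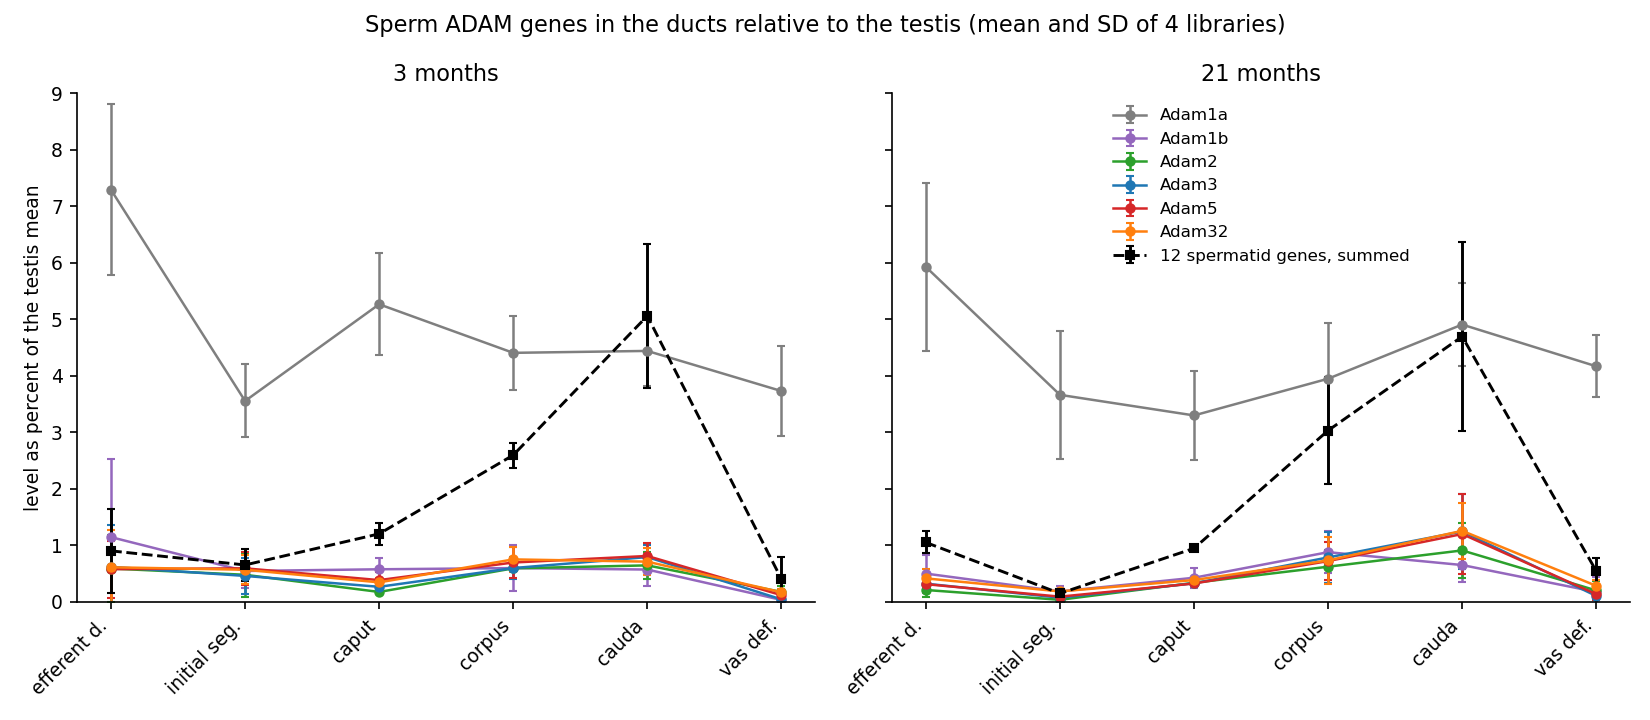
Level in each duct region as a percent of the testis mean of the same age, for the 6 sperm ADAM genes and for 12 spermatid genes summed (points are means and bars are 1 SD of 4 libraries; left 3 months, right 21 months). Adam1a stays between 3.30 and 7.29%, above the other 5 ADAM genes in each region.

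Adam1a stood apart from the other 5 sperm genes in the ducts. Its means there ran from 3.30 to 7.29% of the testis mean over the 12 duct groups, whereas those of the other 5 ran from 0.0285 to 1.25%. In CPM it was 5.41, 4.54, 7.28 and 5.27 in the young efferent ductules and 3.23, 3.56, 2.37 and 2.34 in the young vas deferens. Of the 7508 exonic bases of Adam1a, 63.7% are also exons of Gm42878 on the same strand and 24.0% of Mapkapk5, and 11.3% lie opposite exons of Tmem116, which leaves 2725 bases that no other gene shares on its strand. How much of the duct signal fell on shared bases cannot be read from gene counts. At 3 months Adam1a was lower in the initial segment than in the efferent ductules by 1.06 on the log2 scale (SE 0.17), and by 0.95 without young ductule library 3.

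Adam7 was high throughout the epididymis, with means that fell from the initial segment to the cauda in young mice. Young initial segment libraries had 7291, 9692, 7260 and 9661 CPM, followed by caput with 4808, 5683, 6853 and 6615 CPM, corpus with 3172, 4257, 3540 and 4935 CPM and cauda with 2996, 2924, 1993 and 3454 CPM. Every initial segment library was above every caput library, while caput and corpus overlapped, as did corpus and cauda. Outside this stretch, young vas deferens libraries had 15.5, 6.25, 3.12 and 6.52 CPM, young efferent ductules 3.98, 2.53, 3.34 and 0.507 CPM, and 1 young testis 0.344 CPM with the other 3 at 0. The initial segment of old mice had 8414, 8358, 7600 and 7627 CPM and their caput 7440, 7754, 7883 and 6997 CPM, which overlapped, and their corpus had 3124, 2537, 2458 and 2704 CPM against 3072, 4738, 2319 and 2708 CPM in the cauda. Old vas deferens libraries had 11.5, 8.37, 27.7 and 24.7 CPM.

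Adam28 was high over a shorter stretch. Its libraries had 5257, 5793, 5673 and 3725 CPM in the young initial segment and 268, 169, 535 and 282 CPM in the caput, against 1.5, 0.216, 0.285 and 0.155 CPM in the corpus. The initial segment of old mice had 3395, 3646, 3816 and 3944 CPM, their caput 359, 153, 392 and 481 CPM and their corpus 1.13, 0.678, 0.274 and 0.639 CPM. The ages overlapped in each of these 3 regions. In the cauda no library exceeded 0.446 CPM, and in the testis none exceeded 0.172 CPM. Per kilobase of transcript, Adam7 exceeded Adam28 by a ratio of 1.55 ± 0.535 in the young initial segment and 19.7 ± 7.98 in the young caput (SD, n = 4). The corresponding ratios in old mice were 1.95 ± 0.230 and 23.8 ± 14.7. These values depend on the length used, since Adam28 has 9184 bases in all annotated exons against 3110 in that transcript: per kilobase of all exons the young ratios were 3.68 ± 1.27 and 46.6 ± 18.9 and the old ones 4.61 ± 0.545 and 56.3 ± 34.8.

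Adjacent regions were compared within an age by the quasi-likelihood F-test of edgeR over the 28 libraries, with Benjamini-Hochberg adjustment over all genes tested, and an adjusted p under 0.05 was called a change. From the efferent ductules to the initial segment of young mice Adam7 rose by 11.66 on the log2 scale (SE 0.51, adjusted p = 4.80e-18). Adam28 had only 3 counts over the 4 young efferent ductule libraries, against 322483 in the initial segment, a ratio of 129699 with a 95% counting interval from 44380 to 628924 that covers counting error only, and its fitted fold change depends on the prior count. From the initial segment to the caput Adam28 fell 16.3-fold (log2 -4.03, SE 0.30, adjusted p = 3.32e-12), while the difference of Adam7 was not called (log2 -0.50, SE 0.32, adjusted p = 0.277). From caput to corpus Adam28 fell by a further 578-fold (log2 -9.17, SE 0.43, adjusted p = 3.92e-17), or by 10.40 on the log2 scale without young corpus library 1, the highest of its group, and Adam7 again was not called (log2 -0.58, SE 0.32, adjusted p = 0.178). Over longer distances in young mice the fall of Adam7 was called. It was 1.08 from the initial segment to the corpus (SE 0.33, adjusted p = 0.00821) and 1.57 to the cauda on the log2 scale (SE 0.33, adjusted p = 0.000235). From cauda to vas deferens Adam7 dropped 361-fold (log2 -8.50, SE 0.45, adjusted p = 9.57e-16), whereas Adam28, already low, differed by 0.61 (SE 0.76, adjusted p = 0.586).

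In old mice Adam28 fell 11.5-fold from the initial segment to the caput (log2 -3.52, SE 0.77, adjusted p = 0.000657) and 495-fold from caput to corpus (log2 -8.95, SE 1.09, adjusted p = 1.04e-07). Adam7 differed by -0.19 from the initial segment to the caput (SE 0.68, adjusted p = 0.941) and fell 167-fold from cauda to vas deferens (log2 -7.38, SE 0.90, adjusted p = 1.12e-07). Its caput to corpus difference of -1.50 was not called with all libraries (SE 0.69, adjusted p = 0.0998) but was called at the same size without old efferent ductule libraries 2 and 3 (adjusted p = 0.000119), which enter the shared estimate of the spread. The old gain from the efferent ductules to the initial segment was 6.59 for Adam7 (SE 0.86) and 6.29 for Adam28 (SE 0.88), and that of Adam7 was 11.71 without those 2 libraries. Adam28 had 2 counts in the other 2 old ductule libraries, so no fold is given for it without them.

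Of the 6 sperm ADAM genes, 5 fell from the cauda to the vas deferens at both ages. At 3 months the fall was called for Adam3 (21.4-fold, log2 -4.42, SE 0.67, adjusted p = 3.08e-06), Adam5 (log2 -2.87, SE 0.47), Adam32 (log2 -2.06, SE 0.46) and Adam2 (log2 -1.95, SE 0.55). Adam1b had 36 counts in the young cauda and 2 in the vas deferens, a ratio of 20.5 (95% counting interval 5.27 to 176), and was called too. At 21 months the same 5 genes were called, with log2 differences of -3.57 for Adam3, -3.10 for Adam5, -2.09 for Adam2, -2.06 for Adam32 and -1.82 for Adam1b. Old vas deferens library 3 was the highest of its group for all 5, and without it the differences of Adam3, Adam5 and Adam2 were -5.55, -3.82 and -2.82, while Adam1b had 2 counts left and no fold is given. The Adam1b call was lost without old cauda library 4 or old vas deferens library 1 or 2 (log2 -1.66 to -1.39, adjusted p from 0.0594 to 0.0697). Adam1a was called at neither age (log2 -0.25, adjusted p = 0.289 at 3 months and log2 -0.13, adjusted p = 0.677 at 21 months). From caput to corpus Adam2 rose by 1.77 (SE 0.59) and Adam32 by 1.18 (SE 0.44) at 3 months, and Adam3 by 1.24 (SE 0.46), Adam5 by 1.14 (SE 0.35) and Adam32 by 0.91 (SE 0.29) on the log2 scale at 21 months. With scaling by library size alone the 3 old rises were no longer called (adjusted p = 0.173, 0.117 and 0.211). They were also lost without old corpus library 4 (log2 0.81, 0.82 and 0.47, adjusted p = 0.25, 0.113 and 0.24), and that of Adam3 without old caput library 1, 3 or 4 at log2 1.15 to 1.26. The young rise of Adam32 was lost without any 1 of 6 of the 8 caput and corpus libraries (log2 0.95 to 1.24, adjusted p from 0.0578 to 0.114) and that of Adam2 without young caput library 3 (log2 1.61, adjusted p = 0.0655).

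Counted over the 8 members at 3 months, 3 were called between efferent ductules and initial segment (42.5% of all genes tested), 2 between initial segment and caput (27.4%), 3 between caput and corpus (32.7%), 0 between corpus and cauda (23.4%) and 6 between cauda and vas deferens (36.3%). The corresponding counts at 21 months were 7 (44.6%), 5 (29.7%), 4 (32.3%), 1 (26.8%) and 6 (35.1%). Without the ductule libraries that stand apart, which also enter the spread shared by all regions, the 5 counts were 4, 3, 5, 0 and 6 at 3 months and 6, 5, 5, 2 and 7 at 21 months. The old call lost was Adam1a between ductules and initial segment (log2 -0.60 with and -0.37 without them, adjusted p = 0.0172 and 0.273). Between testis and efferent ductules, the division by which the genes are named, 7 members passed the threshold at 3 months (75.2% of all genes) and 8 at 21 months (74.3%; 7 without old ductule libraries 2 and 3), and nothing is read from these counts. Young duct pairs gave 14 of 40 member tests and old ones 23 of 40. These 10 counts were not tested against the shares, and the 8 members are few and share the same libraries, so nothing about the members is read from them. That between corpus and cauda lay below or near the share of all genes at both ages. At 21 months it was 2 of 8 against 29.5% without old ductule libraries 2 and 3. That between cauda and vas deferens was above the share at both ages. The 1 old call between corpus and cauda was Adam32 (log2 0.69, adjusted p = 0.048), which was lost without old cauda library 4 (log2 0.45, adjusted p = 0.248). In old mice the counts from the efferent ductules to the initial segment and from there to the caput were above the share of all genes as well, while the corresponding young counts were near it. In the young initial segment to ductule comparison the third young ductule library, set apart after seeing the data, decided the direction for Adam32 among others. Adam32 differed by -0.11 with that library (adjusted p = 0.9) and by 0.94 without it (adjusted p = 0.00766). For Adam3 the young means were 4.88 CPM in the initial segment and 6.61 CPM in the ductules, where the other 3 libraries held 2.16 to 3.45 CPM.

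Age was tested in each region by the same edgeR test on its 8 libraries. Of 55 member tests, 8 passed the threshold, 3 towards higher and 5 towards lower levels in old mice. Adam7 in the testis had too few counts to be tested. The initial segment had 4 calls, all lower (6.35% of all genes were called there), the efferent ductules 2, both higher (6.99%), the corpus 1, lower (2.97%), and the vas deferens 1, higher (19.9%). No member was called in the testis (0.563% of all genes), the caput (8.14%) or the cauda (0.128%). Over all genes the median log2 change lay within 0.05 of 0 in each region. With scaling by library size alone it shifted to -0.377 for efferent ductules, 0.188 for caput and -0.168 for corpus. Calls of all genes then split into 405 higher and 4881 lower in the ductules, against 1039 and 774 with TMM scaling, into 154 and 350 in the corpus, against 373 and 365, and into 99 and 90 in the testis, against 106 and 63.

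**Figure D3:**
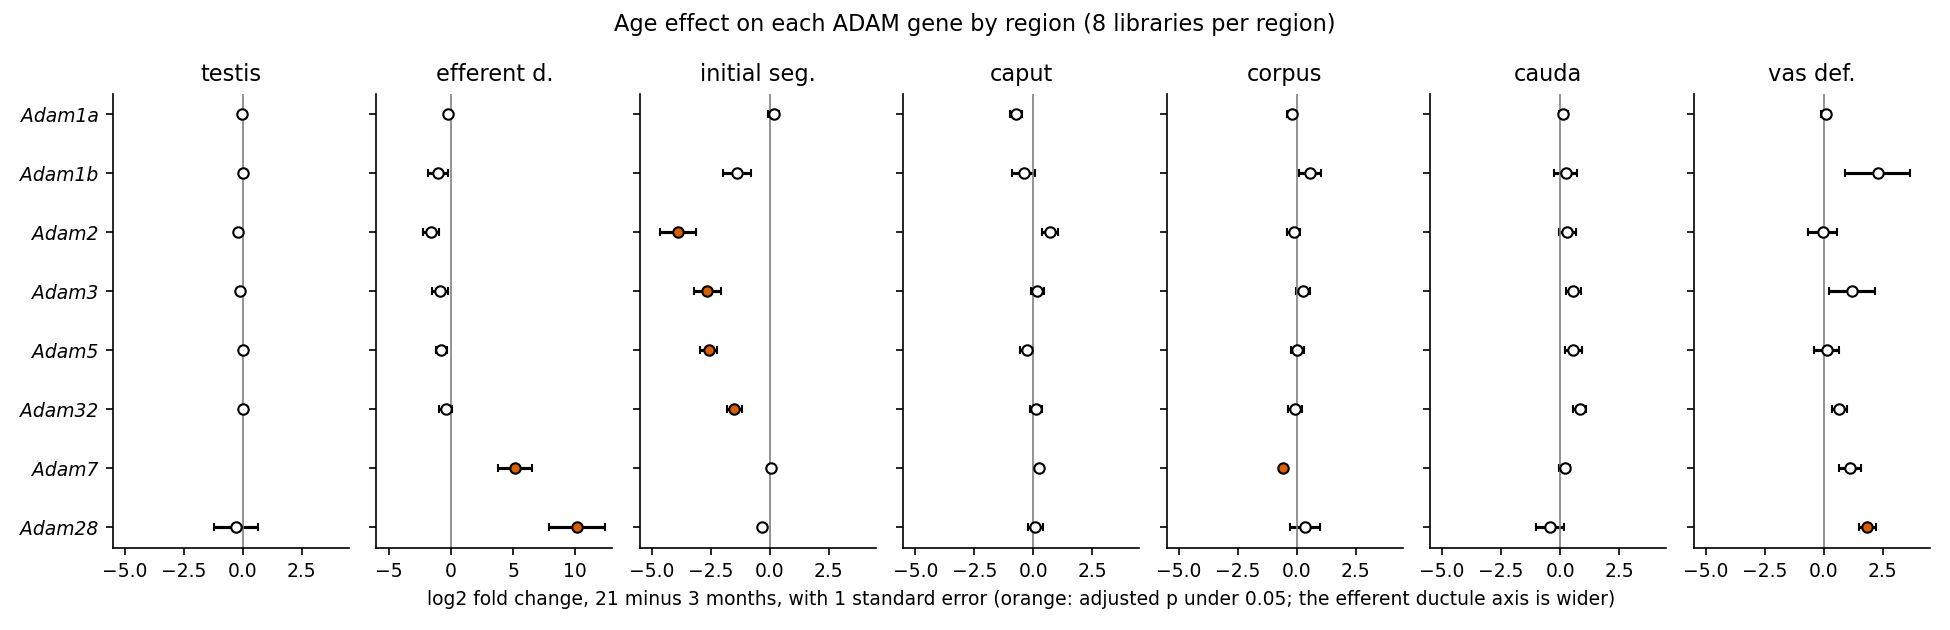
Log2 fold change with age, 21 minus 3 months, of each ADAM gene in each region, with 1 standard error (filled orange points have an adjusted p under 0.05; Adam7 in the testis was not tested; the efferent ductule axis is wider). Filled points to the left are 4 sperm genes in the initial segment and Adam7 in the corpus, and to the right Adam7 and Adam28 in the efferent ductules and Adam28 in the vas deferens.

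In the initial segment 4 of the 6 sperm ADAM genes fell with age. Adam2 had 2.43, 3.35, 0.481 and 0.581 CPM in young and 0.176, 0.141, 0 and 0.0644 CPM in old libraries (log2 -3.88, SE 0.78, edgeR adjusted p = 0.00828). Adam3 had 4.5, 9.81, 2.05 and 3.16 CPM in young and 1.58, 0.423, 0.0669 and 0.644 CPM in old libraries (log2 -2.64, SE 0.56, adjusted p = 0.0114). Neither gene overlapped between the ages, and both were low throughout, with 107 counts of Adam2 and 310 of Adam3 in the young group. Adam5 had 7.21, 11.8, 4.03 and 4.91 CPM in young and 1.94, 0.635, 0.869 and 0.644 CPM in old libraries (log2 -2.59, SE 0.38, adjusted p = 0.00121). Adam32 had 3.21, 5.32, 1.86 and 2.58 CPM in young and 1.17, 0.635, 1.14 and 1.16 CPM in old libraries (log2 -1.50, SE 0.32, adjusted p = 0.0123). All old libraries were again below all young ones. Adam1b, at 0.786, 0.778, 0.301 and 0.258 CPM against 0.235, 0.282, 0.0669 and 0.129 CPM, did not pass the test (log2 -1.38, SE 0.59, adjusted p = 0.214), nor did Adam1a (log2 0.17, SE 0.24, adjusted p = 0.791). Without young library 2, the highest for each of these 4 genes, Adam3 was no longer called (log2 -2.08, adjusted p = 0.0512), and the other 3 were called without any 1 library.

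Spermatid transcripts moved with these genes in the same libraries. The 12 spermatid genes summed to 99.8, 163, 51.8 and 111 CPM in the young and 41.6, 18.1, 15.2 and 22.2 CPM in the old initial segment, and between 10 and 12 of them had a count in each library. Of the 12, 10 fell with age there, among them the protamine genes Prm1 (log2 -2.68, adjusted p = 0.00148) and Prm2 (log2 -1.94, adjusted p = 0.00697), and the list's median was -2.06 against -0.0114 for all genes. The 6 sperm ADAM genes summed to 21.5, 34.0, 11.1 and 13.8 CPM in young and 8.92, 4.44, 5.28 and 4.51 CPM in old libraries. Young library 2 was highest and young library 3 lowest of its age in both sums, and the ages did not overlap in either. Of 10 spermatocyte genes 1 was called lower in the initial segment, with a list median of -0.66. Single spermatocyte genes stood at up to 63.9% of their testis mean in the young initial segment, so not all of them mark germ cells there. No spermatid gene was called in the testis. Among the other marker lists in the initial segment, 5 of 8 T cell and 3 of 8 macrophage genes were called higher with age. There 3 of 6 fibroblast and 2 of 6 smooth muscle genes were called lower. The part of sperm content, or of these other cells, in the fall of the ADAM genes was not tested.

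**Figure D4:**
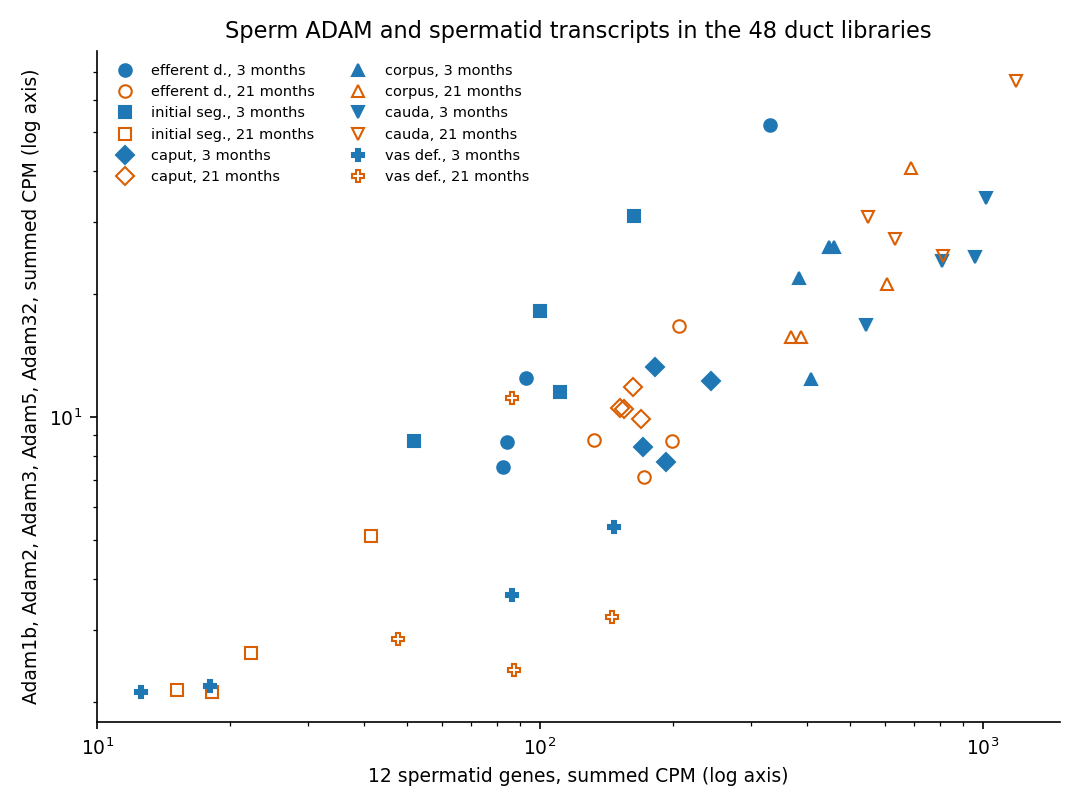
Summed CPM of Adam1b, Adam2, Adam3, Adam5 and Adam32 against summed CPM of 12 spermatid genes in the 48 duct libraries, both on log axes (shapes are regions; filled blue 3 months, open orange 21 months). Old initial segment libraries sit at the lower left, below the young ones on both axes, and cauda libraries at the upper right.

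In the efferent ductules the sperm ADAM genes did not pass the age test. Adam3 had 3.45, 2.16, 18.6 and 2.23 CPM in the young and 2.81, 2.87, 2.0 and 5.10 CPM in the old libraries (log2 -0.90, SE 0.63, adjusted p = 0.409), and Adam5 had 4.99, 3.16, 15.7 and 3.34 CPM against 3.51, 2.82, 2.52 and 5.73 CPM (log2 -0.77, SE 0.47, adjusted p = 0.341). Without young library 3 the Adam3 difference turned to 0.30 (adjusted p = 0.665) and that of Adam5 was -0.06 (adjusted p = 0.937), and Adam1b and Adam32 turned to higher values in old mice too, with none called. The high young value was library 3 for all 6 sperm genes, and that library also had 330 CPM of spermatid transcripts against 82.7 to 92.9 CPM in the other 3 young libraries. Old ductule libraries had 133, 199, 172 and 206 CPM of spermatid transcripts, with 0 of 12 genes called.

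The epididymal ADAM genes were higher in 2 of the 4 old efferent ductule libraries. Adam7 had 3.98, 2.53, 3.34 and 0.507 CPM in young and 0.263, 239, 119 and 4.82 CPM in old libraries (log2 5.18, SE 1.36, adjusted p = 0.0465). Adam28 had 0.159, 0, 0 and 0 CPM in young and 0.175, 136, 68.8 and 0 CPM in old libraries. Old libraries 2 and 3 were high for both genes, while for Adam7 old library 1 was below and old library 4 above the 4 young ones, and for Adam28 they held 2 and 0 counts. With 3 counts of Adam28 in the young and 3588 in the old group the ratio was 1597 (95% counting interval 546 to 7748, counting error only), and the test gave an adjusted p of 0.0276. Without old libraries 2 and 3 the Adam7 difference was 0.11 (adjusted p = 0.935) and Adam28 had too few counts to be tested. Both calls were also lost when any 1 young library was left out (adjusted p from 0.111 to 0.148 for Adam7 and from 0.0753 to 0.127 for Adam28), although the Adam7 difference stayed between 4.84 and 5.49 and the fitted Adam28 difference, which depends on the prior count, between 9.73 and 12.72 against 10.13 with all libraries. Without old library 2 or 3 alone the Adam7 difference was 4.09 (adjusted p = 0.0797) and 5.02 (0.0688).

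Genes of the initial segment epithelium were high in those same 2 libraries. The 6 of them (Lcn8, Lcn9, Cst8, Ovch2, Ros1 and Etv4) summed to 3.55, 2.90, 4.71 and 2.08 CPM in the young and 2.81, 815, 332 and 3.55 CPM in the old ductules, with 4 to 6 of 6 genes detected in each young library and 6 of 6 in each old one. Of the 6, 4 were called higher with age with all libraries, 0 without young library 3, at differences of similar size (Ovch2 7.38, adjusted p = 0.0914; Cst8 6.78, adjusted p = 0.0871), and 0 without old libraries 2 and 3, where edgeR gave adjusted p-values of at least 0.537 for the 5 that could be tested and no unadjusted p under 0.05. Caput genes summed to 560 and 143 CPM in old libraries 2 and 3 and to at most 12.6 CPM in the other 6. The part of these transcripts in the Adam7 and Adam28 values was not tested.

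**Figure D5:**
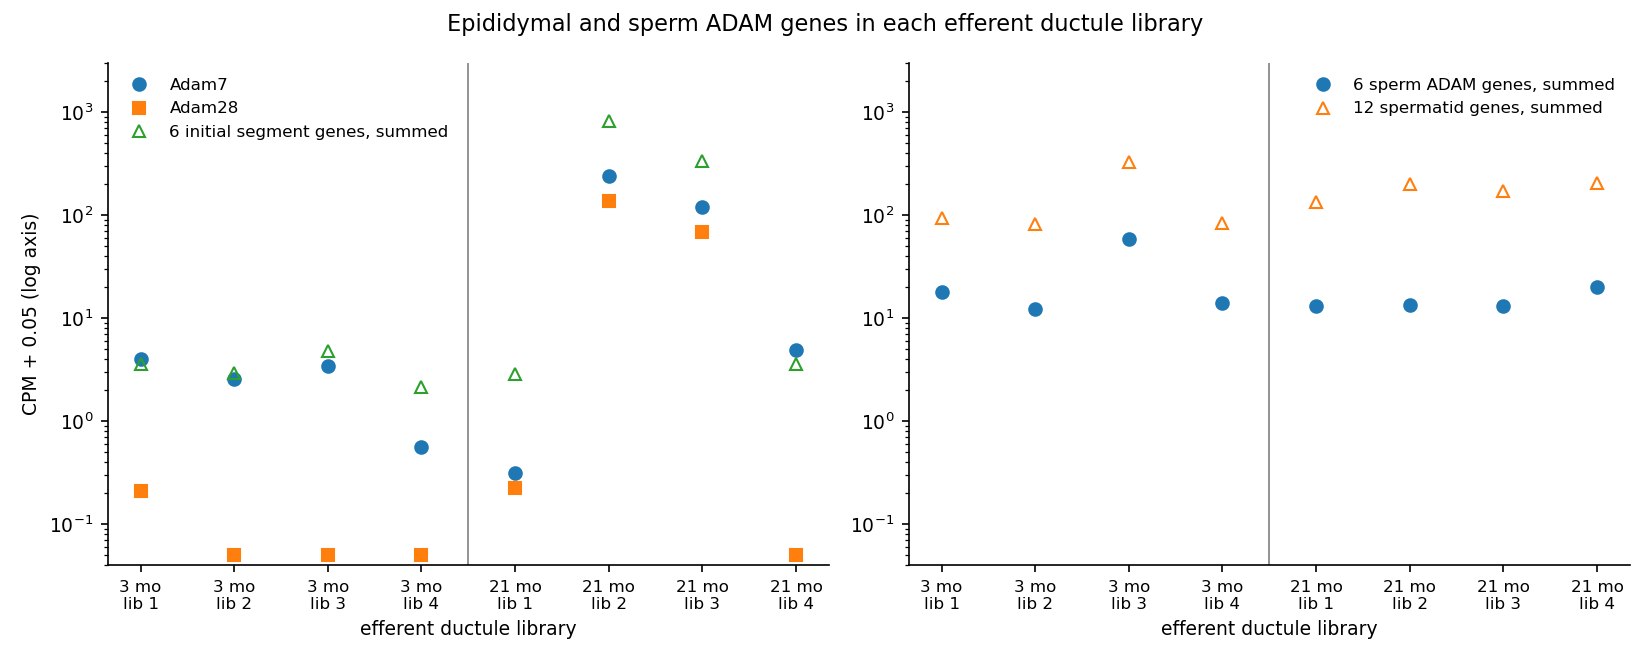
Levels in the 8 efferent ductule libraries, CPM plus 0.05 on a log axis, left for Adam7, Adam28 and 6 initial segment genes summed and right for the 6 sperm ADAM genes and 12 spermatid genes summed (the grey line separates 3 from 21 months). Old libraries 2 and 3 are high on the left, and young library 3 is high on the right.

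In the initial segment itself neither epididymal gene was called with age. Adam28 was lower by 0.32 on the log2 scale (SE 0.11, adjusted p = 0.116), with young library 4 inside the old range, and was called without that library (log2 -0.44, adjusted p = 0.0044; range over the alternatives 0.0044 to 0.749). Adam7 differed there by 0.06 (SE 0.10, adjusted p = 0.84). In the caput all 4 old Adam7 libraries were above all 4 young ones, at 7518 ± 394 against 5990 ± 936 CPM (SD, n = 4), but the difference was not called (log2 0.26, SE 0.15, adjusted p = 0.292). Gm42418 held 10.4 to 26.3% of young and 17 to 36.0% of old corpus counts. In the corpus Adam7 fell from 3976 ± 782 to 2706 ± 297 CPM (log2 -0.57, SE 0.13, adjusted p = 0.0264), without overlap of the ages. That call was lost without young library 2 (adjusted p = 0.0774) or old library 2 (0.102), 3 (0.0608) or 4 (0.0916), with differences from -0.55 to -0.53, with scaling by library size alone (0.0728) and in a fit of all 56 libraries (0.754). In the same corpus libraries 6 of 6 fibroblast genes were called lower (list median -1.31), 3 of 8 B cell genes and 1 of 8 T cell genes higher, and 1 of 6 caput and 1 of 6 distal epididymis genes lower. Their part in the Adam7 value was not tested. The cauda showed no call for Adam7 (log2 0.19, SE 0.23, adjusted p = 0.789) or Adam28 (log2 -0.42, SE 0.60, adjusted p = 0.818).

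In the vas deferens Adam28 rose with age at a low level. Its libraries had 0.529, 0.375, 0.396 and 0.195 CPM at 3 months and 1.67, 1.36, 1.74 and 0.913 CPM at 21 months (log2 1.85, SE 0.36, adjusted p = 0.00584), from 28 and 104 counts in all. Each old library was above each young one. Adam7 had 15.5, 6.25, 3.12 and 6.52 against 11.5, 8.37, 27.7 and 24.7 CPM and was not called (log2 1.12, SE 0.47, adjusted p = 0.115). Lymphocyte transcripts rose with age in the same libraries. The 8 B cell genes summed to 6.24, 6.32, 9.65 and 5.21 CPM in young and 120, 71.4, 91.4 and 288 CPM in old libraries, and all 8 rose. The 8 T cell genes, which also all rose, summed to between 5.92 and 9.94 CPM in young and between 21.5 and 61.9 CPM in old libraries. The 6 caput genes summed to between 3.02 and 3.86 CPM in young and to 13, 4.89, 30.8 and 21.1 CPM in old libraries, with 2 of 5 tested called higher. Of 6 distal epididymis genes 4 were called higher and 1 lower, and of 8 macrophage genes 4 were called higher. Of 6 smooth muscle genes 3 were called higher, and of 6 fibroblast genes 5 were called lower. The part of these transcripts in the Adam28 value was not tested. In the fit of all 56 libraries the Adam28 call was lost (log2 1.92, adjusted p = 0.282).

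In the testis no member was called with age. The nearest was Adam2, which was lower in all 4 old testes by 0.19 on the log2 scale (SE 0.05, adjusted p = 0.0809), and which was called by DESeq2 (adjusted p = 0.00904), with scaling by library size alone (0.0403) and with the replicate number as a block (0.046). The other 5 sperm genes differed by between -0.10 for Adam3 (SE 0.05, adjusted p = 0.5) and 0.02 for Adam1b (SE 0.09, adjusted p = 0.958). Of the other tests that were not called, Adam1a in the caput was lower in all 4 old libraries (log2 -0.73, SE 0.24, adjusted p = 0.0763) and Adam2 in the caput higher in all 4 (log2 0.72, SE 0.33, adjusted p = 0.195). Adam32 in the cauda had a difference of 0.82 (SE 0.29, adjusted p = 0.349).

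Whether the effect of age differed between adjacent regions was tested in 1 fit of all 56 libraries. Between initial segment and efferent ductules 2 members were called (2.63% of all genes), Adam28 with a difference of age effects of -10.57 (SE 1.34, adjusted p = 3.02e-06) and Adam7 with -5.23 (SE 0.89, adjusted p = 0.00021). Both were lost without the 3 ductule libraries that stand apart, at -1.07 for Adam28 (adjusted p = 0.989) and -0.11 for Adam7 (adjusted p = 1.0). Between caput and initial segment 3 were called (6.57%), and the age effect was more negative in the initial segment by 4.78 for Adam2 (SE 1.03, adjusted p = 0.00162), 3.01 for Adam3 (SE 0.89, adjusted p = 0.0284) and 2.55 for Adam5 (SE 0.67, adjusted p = 0.0128). Adam32 had a difference of 1.84 (SE 0.62, adjusted p = 0.0597). The Adam2 difference was called without each replicate, while that of Adam3 was lost without replicate 1, 2 or 4 (differences of 3.73, 2.06 and 3.14, adjusted p up to 0.415) and that of Adam5 without replicate 2 or 4 (2.03 and 2.37, adjusted p up to 0.191). Without the 3 ductule libraries the initial segment also differed from the ductules for Adam3 (-3.28, adjusted p = 0.00965), Adam5 (-2.91, adjusted p = 0.00359), Adam2 (-3.49, adjusted p = 0.0402) and Adam32 (-2.35, adjusted p = 0.00287), and the caput from the initial segment also for Adam32 (1.69, adjusted p = 0.0137) and Adam1a (-0.84, adjusted p = 0.0413). These libraries were chosen after seeing the data, and young library 3 was the highest of its group for every sperm gene. Leaving it out takes away the highest young value, so nothing is read from these further ductule calls. No member was called between testis and efferent ductules (1.06% of all genes), caput and corpus (1.84%), corpus and cauda (0.381%) or cauda and vas deferens (6.95%), so the corpus fall of Adam7 was not shown to differ from the change in the caput (-0.88, adjusted p = 0.713) or in the cauda (0.73, adjusted p = 0.795). Without the 3 ductule libraries these differences were -0.87 (adjusted p = 0.321) and 0.75 (adjusted p = 0.43).

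The clusters hold other ADAM genes as well. Adam18, 2.469 kb from Adam3, had 133 ± 4.99 CPM in the young and 124 ± 2.46 CPM in the old testis and at most 3.13 CPM in any duct library. Adam9, 0.806 kb from Adam32 at the other end of the cluster and a widely expressed ADAM, was lower in the testis, between 22.4 and 33.7 CPM, than in any duct library, where it lay between 48.9 and 112 CPM. Adamdec1, between Adam7 and Adam28, was highest in the initial segment at 22.4 ± 4.81 CPM in young and 25.4 ± 2.88 CPM in old mice, and had 1.93 ± 1.09 CPM in the young caput. It was at 0 in the 4 young efferent ductule libraries and had 0.83 and 0.80 CPM in old libraries 2 and 3 only.

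The 26 other ADAM genes were tested for age in the same fits. In the efferent ductules 3 of 24 tested fell (6.99% of all genes were called there in either direction), Adam12 (log2 -0.86, adjusted p = 0.0312), the sheddase gene Adam10 (log2 -0.39, adjusted p = 0.0336) and Adam17. Without young ductule library 3 the differences were of similar size (-0.89, -0.40 and -0.35) but not called (adjusted p from 0.079 to 0.12), and without old libraries 2 and 3 all 3 were called (adjusted p from 0.0022 to 0.0184). In the same libraries 3 of 6 fibroblast genes fell and 5 of 8 macrophage, 4 of 8 T cell and 2 of 8 B cell genes rose, and their part in these falls was not tested. In the initial segment 2 of 23 fell (6.35% of all genes), Adam6a and Adam24, both below 1 CPM, in the caput 1 of 22 rose (Adam22, log2 0.65, adjusted p = 0.0253; 8.14% of all genes) and in the corpus 1 of 25 fell (Adam23, log2 -0.63, adjusted p = 0.0198; 2.97% of all genes). In the vas deferens 2 of 18 rose, Adamdec1 and Adam6b, both below 1 CPM, and 3 fell, Adam12 (log2 -1.03, adjusted p = 0.00962), Adam4 (log2 -0.50, adjusted p = 0.0149) and Adam22, against 19.9% of all genes. None was called in the testis or cauda, where edgeR called 169 and 33 of all genes and 3134 and 2704 had an unadjusted p under 0.05.

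Of 15 genes needed for, or binding, ADAM3 on its way to the sperm surface, 3 fell in the initial segment, where 6.35% of all genes were called, with a list median of -0.27 against -0.01 for all genes. In the same libraries 10 of 12 spermatid genes fell, and their part in these 3 calls was not tested. They were the testis chaperone gene Clgn, from 3.61 to 0.551 CPM (log2 -2.52, adjusted p = 0.00554), and, below 1 CPM at both ages, Pdilt and Prss37. In the testis, where 0.563% of all genes were called, 1 of 15 fell, Cmtm2a (log2 -0.36, adjusted p = 0.0103). In the efferent ductules 1 of 15 was called, against 6.99% of all genes. It was Rnase10, an epididymal gene needed for ADAM3 on sperm, which had 0.0527 to 0.159 CPM in young and 0.351, 188, 85.2 and 0.273 CPM in old libraries (log2 9.28, adjusted p = 0.0261), and was not called without old libraries 2 and 3 (log2 1.64, adjusted p = 0.166) or, at a similar difference, without young library 3 (log2 9.23, adjusted p = 0.0836). In the vas deferens 4 of 13 rose, against 19.9% of all genes called, Pdia3 (0.64, adjusted p = 0.00201), Tpst2 (0.62, adjusted p = 0.013), Calr and Cmtm2b. All 8 B cell and all 8 T cell genes rose and 5 of 6 fibroblast genes fell in those libraries, and their part in the 4 rises was not tested. Of 9 genes of the lumicrine pathway, by which the testis acts on the initial segment, Ovch2, also among the 6 initial segment genes above, was the 1 called in the efferent ductules, against 6.99% of all genes (log2 7.46, adjusted p = 0.0294), through old libraries 2 and 3, at 88.6 and 33.2 CPM against at most 0.364 CPM in the other 6, and not without them (log2 0.50, adjusted p = 0.707). Ptpn6 rose in the corpus (0.43, adjusted p = 0.0311) and vas deferens (0.86, adjusted p = 0.0167), 1 of 9 genes in each, against 2.97% and 19.9% of all genes. In the same libraries 3 of 8 B cell genes and 1 of 8 T cell genes rose in the corpus and all 8 of each in the vas deferens, and their part in the Ptpn6 values was not tested. Of 13 sperm-egg genes found, Zpbp2 fell in the initial segment (6.35% of all genes called), while caput Zpbp rose (0.58, adjusted p = 0.0485) and Spaca6 fell (-0.60, adjusted p = 0.0153; 8.14% of all genes called). In the same caput libraries 5 of 6 smooth muscle, 3 of 6 fibroblast and 2 of 12 spermatid genes were called lower. There 3 of 8 T cell and 2 of 8 macrophage genes were called higher. Their part in these caput changes and in the caput rise of Adam22 was not tested.

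The genes whose levels followed Adam28 most closely over the 56 libraries, by Pearson's r of log2(CPM + 1) among 15503 genes, were Lcn9 (0.996), Defb25 (0.995), Lcn8 (0.995), Ly6g5c (0.995) and Ly6g5b (0.995). For Adam7 they were Atp6v0d2 (0.959), Skap1 (0.959), Dap (0.959), Apobr (0.958) and Slc25a47 (0.953). An r above 0.99 was reached with 10 genes for Adam28 and 0 for Adam7 and Adam1a, and with 273 for Adam1b, 158 for Adam32, 109 for Adam2, 35 for Adam5 and 31 for Adam3. Libraries of a region share their cell makeup, so these values describe likeness of regional pattern only.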

How the data were processed

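The authors deposited raw read counts per Ensembl gene for 56 libraries, made from a stranded total RNA kit with paired-end reads. The submitters' processing notes name cutadapt, HISAT2 and HTSeq and the build mm10 (GRCm38). Tool versions, annotation release, counting mode and strand setting are not given in the sources used here. Labels name TRIzol and the methods an RNeasy kit for extraction. Groups came from the region, age and replicate number of the labels. Replicate libraries differed by more than sampling noise in each of 84 pairs (smallest reduced chi-square 2.85).

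Symbols and positions came from GENCODE M21 (53274 genes matched). Counts were tested with edgeR 4.0.16 in R 4.3.3 (TMM scaling, quasi-likelihood F-test, genes whose counts in a fit reached 10 in all, Benjamini-Hochberg adjustment over all genes, adjusted p under 0.05): age in each region's 8 libraries, regions in the 28 libraries of an age, and differences of the age effect in all 56. DESeq2 1.42.0, other scalings and filters, the study's cutoff (unadjusted p under 0.05 and 1.5-fold) and leaving out libraries were alternatives. The scripts were tested on simulated counts. P-values measure the spread between these libraries, and no source ties a replicate number to a mouse. The 8 members and the gene lists were chosen with earlier results of these data known. Named beside the members were ADAM genes within 500 kb of a member, and per list and region up to 2 genes per direction with the largest called change and a mean of at least 1 CPM. Called list genes given without values, Prm1 and Prm2 were named after their values were seen. Levels per kilobase use the length of 1 transcript per gene. The counting intervals are exact and at the 95% level.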

Additional observations from a re-analysis of the deposited data

Results flagged for a closer look

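Of 106 groups of 4 libraries in which a member had a library above 3 counts, 14 held 1 library set apart from the other 3 by Dixon's gap test, which marks about 1 group in 20 by chance. The third young efferent ductule library stood apart for Adam3 (18.6 CPM, others 2.16 to 3.45), Adam5 (15.7 CPM, others 3.16 to 4.99) and Adam32 (9.14 CPM, others 1.48 to 1.80). The third old vas deferens library stood apart for Adam3 (3.26 CPM, others 0.114 to 0.303), Adam5 (3.43 CPM, others 0.742 to 1.01) and Adam32 (2.48 CPM, others 1.23 to 1.41). The fourth old cauda library was high for Adam3 (22.6 CPM, others 8.36 to 10.2) and Adam32 (11.5 CPM, others 5.50 to 5.88). In that library the 12 spermatid genes summed to 1187 CPM, against 550 to 811 CPM in the other 3 old cauda libraries. The second old initial segment library was low for Adam32 (0.635 CPM, others 1.14 to 1.17).

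The remaining libraries set apart were the fourth young testis for Adam1a (73.2 CPM, others 77.9 to 78.9), the fourth old corpus for Adam1b (1.42 CPM, others 0.664 to 0.731), the first young corpus for Adam2 (1.99 CPM, others 2.16 to 2.17) and for Adam28 (1.5 CPM, others 0.155 to 0.285), and the first young testis for Adam7 (0.344 CPM, others 0).

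The effect of age differed between adjacent regions for 5 of 48 member tests by the interaction term of edgeR. Between initial segment and efferent ductules the difference was -10.57 for Adam28 and -5.23 for Adam7, in 2 of 4 old ductule libraries. Between caput and initial segment it was 3.01 for Adam3, 2.55 for Adam5 and 4.78 for Adam2.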

How the results depend on the processing

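Of the 8 age calls on members, the count was 13 by the study's cutoff, 10 by DESeq2, 6 with the filterByExpr filter, 9 without a filter, 6 without old efferent ductule libraries 2 and 3 and 6 without young ductule library 3, and it ranged from 6 to 9 when 1 library was left out. The 21 young calls between adjacent regions became 25 without the third young ductule library and 18 to 28 without 1 replicate number, and the 31 old calls became 32 without old ductule libraries 2 and 3 and 24 to 29 without 1 number. The 5 differences of the age effect became 11 by the study's cutoff, 9 by DESeq2, 9 without the 3 ductule libraries and 3 to 10 without 1 replicate number. The choice of the ductule libraries to leave out was made after seeing the data. Directions reversed for the uncalled age differences of Adam1b, Adam3 and Adam32 in the ductules without young library 3, and between initial segment and efferent ductules at 3 months, where replicate 3 is the ductule library rich in germ cell transcripts: leaving out 1 replicate number gave log2 differences from -1.15 to 1.13 for Adam3, -1.07 to 0.99 for Adam2 and -0.55 to 1.17 for Adam32, the positive ends without replicate 3 (adjusted p = 0.00595, 0.0399 and 0.000554), and without that library alone 0.94 for Adam32 (0.00766). DESeq2 gave no adjusted p for 8 results of Adam3 and Adam7, which were left out.

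Same-numbered libraries had all correlations above 0.1 in 1 of 21 pairs of young regions (mean 0.0301), in 0 of 21 pairs of old regions (mean 0.00251) and in 0 of 7 regions between ages (mean 0.0209), so the numbers were not treated as pairs over the series. The exception was young corpus and cauda (0.102 to 0.178), where the block called 0 of 8 members, as did the fit without it, with Adam7 at -0.51 (adjusted p = 0.284) against -0.49 (0.318). With the replicate number as a block, 8 age calls were made and the Adam7 call in the efferent ductules was lost (log2 4.06, adjusted p = 0.126). The block left 6 differences of the age effect. Depth limits values such as Adam1b in young vas deferens, with 2 counts over 4 libraries, and Adam28 in young ductules, with 3.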
